A study of Mus musculus with 107 samples.

Results

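The right ears of 6 mice (animals 16, 17, 18, 19, 21 and 22) received indomethacin 15 min before sulfur mustard, and their skin was compared with that of 21 left ears given only methylene chloride, the solvent of the mustard. The ears were assigned by these treatment labels and by no measured value. RNA of each ear went onto both Affymetrix mouse arrays of the study, named A and B here, so that the comparison used 54 of the 107 arrays of the series. The mustard was 0.08 mg (0.5 µmol) in 5 µL methylene chloride on the inner ear surface, the indomethacin was 1.34 mg (3.74 µmol) in 20 µL ethanol, and an 8 mm biopsy was taken at 24 h. The vehicle ears received 5 µL methylene chloride and no ethanol per the labels, and neither did ears with mustard alone, so indomethacin and its ethanol cannot be told apart in either comparison. Further ears were read beside them: 5 right ears with mustard alone, 6 right ears with dimercaprol before mustard, and, on array A and without mustard, 4 ears with indomethacin, 3 with ethanol and 5 naive ears of 3 mice. Another 5 ears, with octylhomovanillamide before mustard, entered the shared fit only. Strain, sex and age of the mice are not given in the sources used here. Animals 17, 18, 19 and 22 supplied both a treated and a vehicle ear, 13 further vehicle ears came from animals with another treated ear, and 4 from animals of which no treated ear was analysed here. The left ears of animals 16 and 21 were not analysed here.

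Sulfur mustard is a blistering agent that alkylates DNA and proteins, and in skin it damages above all the dividing basal keratinocytes. DNA damage stabilises p53, which switches on genes of cell-cycle arrest, repair and death, and injured keratinocytes switch on stress keratins, antimicrobial proteins and chemokines. Indomethacin inhibits the cyclooxygenases, the enzymes that turn arachidonic acid into the precursor of the prostaglandins; it acts on the enzymes, and messenger RNA does not measure prostaglandins. The labels pair the drug with mustard, and the question addressed here is which transcripts still differed from vehicle skin in ears that had received both.

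Mustard skin pretreated with indomethacin differed from vehicle skin across much of the transcriptome. On array A, 5726 of 15953 probe sets were called (adjusted p under 0.05, limma with Benjamini-Hochberg adjustment over all probe sets kept), which is 35.9%. Of these 2595 were higher (16.3%) and 3131 lower (19.6%), and 258 and 291 of them changed at least 2-fold. On array B, 2202 of 17287 probe sets were called (12.7%), 980 higher (5.67%) and 1222 lower (7.07%). Counted as genes with 1 probe set each, array A had 1650 of 9611 genes higher (17.2%) and 2012 lower (20.9%), and array B 638 of 8094 higher (7.88%) and 792 lower (9.79%). In 289 genes of array A (3.01%) all 6 treated ears lay above every vehicle ear, and in 262 (2.73%) all 6 lay below; on array B this held for 111 genes (1.37%) and 107 genes (1.32%). With the animal as a replicate block over the 17 animals that had both ears on the arrays, array A had 3033 calls and array B 740. With the 4 indomethacin animals alone the counts were 3064 and 663. Both block fits leave out the treated ears of animals 16 and 21, so the fold of a gene is the same in both. Where a fold shrank or a call was lost under the block, the missing ears and the pairing cannot be told apart. Without rescaling the arrays, array A had 2535 calls, 31.6% of them higher against 45.3% with rescaling, and array B had 1097. Bulk skin was measured, so fewer cells of a type and less RNA per cell cannot be told apart in any value that follows.

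Signals below are scaled so that each array has a trimmed mean of 500, ears are listed in the order of animals 16, 17, 18, 19, 21 and 22, and log2 folds are on the log2(signal + 16) scale with their standard errors. Counts of list members are for array A, where 17.2% of all genes were called higher and 20.9% lower. Unscaled array A brightness (trimmed mean) was 127.6 to 210 in the treated ears and 110.9 to 220.7 in the vehicle ears, and the log2 ratio of the Gapdh 3' to 5' control probe sets was 0.00 ± 0.09 (SD, n = 6) and -0.06 ± 0.13 (n = 21). Both measures overlapped between the groups. Skeletal muscle genes, which reflect how much of the ear's muscle a biopsy holds, averaged 10.45 to 11.87 on the log2 scale in the treated ears and 9.84 to 12.35 in the vehicle ears, and 1 of 23, Ttn, was called (log2 fold -0.96).

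The genes that rose most were those of injured and stressed keratinocytes. Of 22 genes of the wound and stress keratinocyte list kept on array A, 21 rose and none fell, with a median log2 fold of 2.83 beside -0.03 over all genes, and in 17 of them every treated ear was above every vehicle ear. The block over 17 animals called 20 of the 22 higher. The list includes stress keratins, cornified envelope proteins, an antimicrobial peptide, stefins (inhibitors of cysteine proteases) and growth factors of the epidermal growth factor family.

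Defb3, a beta-defensin that kills microbes at epithelial surfaces, gave scaled signals of 7010, 4210, 1220, 6060, 5120 and 7360 in the treated ears, against 4.4 to 73.8 with a median of 10.4 in the vehicle ears. All treated ears were far above the vehicle ears, with that of animal 18 the lowest. Its log2 fold was 7.08 ± 0.55 (adjusted p = 2.91e-13). Because its vehicle signals are so low, the size depends on the added constant, and with 64 in place of 16 it was 5.77.

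Krt6b, a keratin of wounded and thickened epidermis, read 19600, 12100, 9560, 18400, 16900 and 16400, against 19 to 1530 (median 223) in vehicle skin. The groups did not overlap, and the log2 fold was 6.15 ± 0.57 (71.2-fold, adjusted p = 2.17e-11). Krt16, the partner keratin of the same filaments, rose by 5.48 ± 0.43 (adjusted p = 3.6e-13), with treated ears between 6940 and 19500 and vehicle ears between 120 and 988. Krt6a was already abundant in vehicle skin, at 862 to 3150 (median 1420). It reached 9140 to 17900 in the treated ears, a log2 fold of 3.19 ± 0.29 that all 3 of its probe sets shared in direction and call. Epgn, a growth factor that activates the epidermal growth factor receptor, read 7650, 2230, 616, 4120, 1630 and 5260 against 47.8 to 172. Every treated ear was above the vehicle range, although the ears themselves spread over an order of magnitude, and the log2 fold was 4.52 ± 0.43 (adjusted p = 5.65e-11).

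S100a8 and S100a9 encode the 2 chains of calprotectin, a metal-binding antimicrobial protein that both neutrophils and stressed keratinocytes make. S100a8 read 17200, 10500, 5080, 13900, 11800 and 14800 against 109 to 499 (median 222), a log2 fold of 5.60 ± 0.49. S100a9 moved with it, from a vehicle median of 233 to between 4310 and 18800 (log2 fold 5.55 ± 0.49, adjusted p = 8.78e-12). For both genes animal 18 was the lowest and animal 16 the highest ear.

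Late cornified envelope and small proline-rich genes, which encode the cross-linked shell of cornified cells, made up most of the remaining large rises. Lce3a (log2 fold 6.33 ± 0.49) and Lce3c (5.40 ± 0.49) rose on array A, and Lce3f (4.93 ± 0.48) and Lce3b (3.93 ± 0.33) on array B, each with all 6 treated ears above all vehicle ears. Vehicle signals of Lce3a were only 14.6 to 147, and with the larger added constant its log2 fold was 5.47. Sprr1b read 9650, 9820, 6370, 9940, 10100 and 11700 against 69.2 to 1530 (median 621), a log2 fold of 4.55 ± 0.50 (adjusted p = 1.62e-09). Sprr2h read 10100, 7030, 3740, 8850, 7640 and 10000 against 148 to 964 (4.36 ± 0.37), and Sprr2f and Sprr2i rose by 5.61 ± 0.46 and 4.47 ± 0.40. The treated and vehicle ears did not overlap for any of these 4 Sprr genes. Sprr2 genes are near copies of each other, so a probe set of one may take up transcript of another, and their values are uncertain as measures of single genes.

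Since these neighbours on chromosome 3 rose together, their promoters are shown from RefSeq (build GRCm38.p6), each as 300 bases from 250 before the annotated start to 50 after it, in the direction of the gene. Sprr1b lies on the minus strand at chr3:92438730-92439029, and on the plus strand Sprr2f at chr3:92364937-92365236, Sprr2h at chr3:92385435-92385734 and Sprr2i at chr3:92407741-92408040. Capitals mark matches to TGANTCA, where N is any base, and to TATAAA, the TATA box, both searched on both strands. TGANTCA is its own reverse complement. It includes the usual site of AP-1 (dimers of Fos and Jun proteins), TGAGTCA or TGACTCA, and is wider than that site.
Sprr1b: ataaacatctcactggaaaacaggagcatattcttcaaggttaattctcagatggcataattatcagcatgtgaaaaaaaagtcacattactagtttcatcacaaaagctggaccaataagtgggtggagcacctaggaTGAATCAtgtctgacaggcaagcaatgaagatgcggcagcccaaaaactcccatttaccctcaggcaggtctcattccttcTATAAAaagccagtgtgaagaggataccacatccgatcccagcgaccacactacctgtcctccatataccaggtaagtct
Sprr2f: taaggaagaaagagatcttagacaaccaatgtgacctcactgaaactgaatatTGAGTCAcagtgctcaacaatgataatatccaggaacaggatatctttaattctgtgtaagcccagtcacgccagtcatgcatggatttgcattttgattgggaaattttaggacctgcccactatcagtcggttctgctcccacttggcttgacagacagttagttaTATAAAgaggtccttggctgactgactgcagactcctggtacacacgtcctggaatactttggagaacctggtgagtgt
Sprr2h: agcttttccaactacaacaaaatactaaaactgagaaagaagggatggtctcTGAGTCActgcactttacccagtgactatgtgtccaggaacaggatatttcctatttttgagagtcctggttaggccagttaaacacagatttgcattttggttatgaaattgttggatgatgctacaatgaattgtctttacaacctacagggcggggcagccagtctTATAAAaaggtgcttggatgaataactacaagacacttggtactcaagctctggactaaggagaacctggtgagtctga
Sprr2i: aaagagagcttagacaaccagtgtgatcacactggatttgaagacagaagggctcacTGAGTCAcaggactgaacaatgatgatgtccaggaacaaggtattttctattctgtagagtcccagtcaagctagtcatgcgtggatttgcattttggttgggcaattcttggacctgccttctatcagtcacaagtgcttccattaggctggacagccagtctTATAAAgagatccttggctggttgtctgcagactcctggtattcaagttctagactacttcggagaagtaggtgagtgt
Each of the 4 held 1 match to TGANTCA, starting 111 bases before the start in Sprr1b and 197, 198 and 193 before it in Sprr2f, Sprr2h and Sprr2i. The match read TGAGTCA in Sprr2f, Sprr2h and Sprr2i, and TGAATCA, which is not the usual AP-1 site, in Sprr1b. A TATAAA match followed 29 or 30 bases before the start in all 4. Among 186 promoters found for 155 of the 182 array A genes at least 2-fold higher, 15.1% held TGANTCA, 22.6% TATAAA and 7.53% both. The shares over the 9978 promoters of all genes kept were 6%, 8.53% and 0.882%, and over promoters of genes at least 2-fold lower they were 5.64%, 7.69% and 1.03%. For array B only the 5411 genes not kept on array A were read, 94 of them at least 2-fold higher and 94 lower. TGANTCA was in 11.3% of promoters of these risen genes and in 11.7% of those of the fallen genes, beside 5.94% over all 5411. TATAAA was in 13.4%, 9.71% and 9.35%. The risen genes of array A include clusters of related genes such as Sprr and Lce, so their promoters are not independent, and a match is a description of the letters and not of a bound factor.

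Other genes of the epidermal barrier were divided. Of 23 epidermal differentiation genes kept, 9 rose and 4 fell (median log2 fold 0.21), beside 17.2% and 20.9% of all genes. The block over 17 animals left 2 higher and 1 lower. Rptn, the cornified envelope protein repetin, rose from a vehicle median of 123 (67.4 to 286) to 2300, 1240, 904, 2190, 1870 and 2040, a log2 fold of 3.61 ± 0.28 (adjusted p = 3.03e-13). The ears did not overlap, although 1 of the gene's 3 probe sets was called. Tgm3, a transglutaminase that cross-links the envelope, rose by 1.28 ± 0.19 on array A and 1.01 ± 0.18 on array B. Cnfn, which encodes the envelope protein cornifelin, rose by 1.74 ± 0.19 on array B, with 36100 to 63900 in the treated ears and 8520 to 22600 in vehicle ears. The 4 that fell were Mt4, Flg, Lce1b and Calml3. Mt4, the metallothionein of stratified epithelia, read 577, 4160, 5630, 3440, 3770 and 1010 against 3300 to 9880, a log2 fold of -1.60 ± 0.31. Only the ears of animals 16 and 22 lay below every vehicle ear. Flg, which encodes filaggrin, had a log2 fold of -0.43 ± 0.14 (adjusted p = 0.0153). The call was lost without animal 16 (adjusted p = 0.102) and without animal 22 (0.0835). It was also lost with the block over 17 animals, where the fold was as large (-0.49, adjusted p = 0.0523), and kept with the 4 pairs alone (0.0102). Krt10, the main keratin of the suprabasal layers, stayed within 20400 to 28400 against 18300 to 31700 and was not called (log2 fold 0.11 ± 0.10, adjusted p = 0.388).

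**Figure D1:**
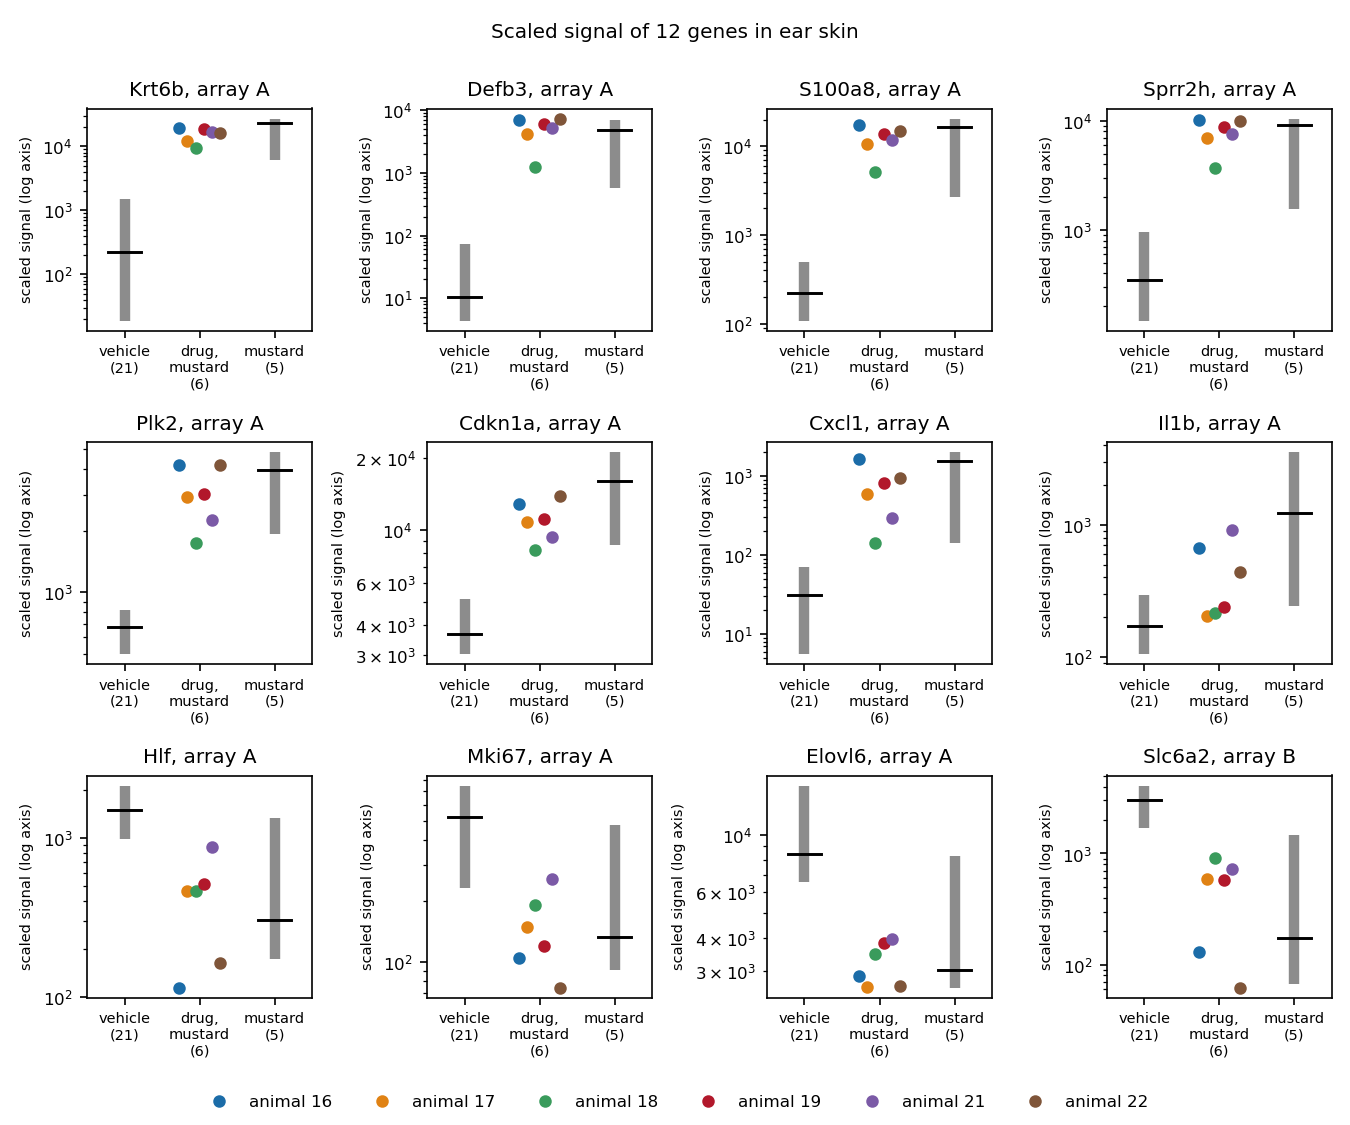
Scaled signal (log axis) of 12 genes. Grey bars give the range and black lines the median of the 21 vehicle ears and of the 5 ears with mustard alone; coloured points (drug, mustard) are the 6 ears with indomethacin before mustard, 1 colour per animal. Krt6b, S100a8 and Cdkn1a of the treated ears lie above the whole vehicle range, and Hlf and Elovl6 below it.

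p53 target genes rose as a group. Of 29 kept on array A, 23 rose and 3 fell, the median log2 fold was 0.92, and in 15 all treated ears were above all vehicle ears; the block over 17 animals called 18 higher and 2 lower. Cdkn1a, the cell-cycle inhibitor p21, read 12800, 10800, 8200, 11100, 9340 and 13800 against 3030 to 5150 (median 3690). Each treated ear exceeded the highest vehicle ear, and the log2 fold was 1.50 ± 0.13 (2.83-fold, adjusted p = 8.18e-12). Plk2, a kinase induced by p53, rose by 2.10 ± 0.16 on array A, from 498 to 822 up to 1740 to 4210, while its array B probe set was not called (0.28 ± 0.19). Mdm2, the ligase that degrades p53, rose by 1.82 ± 0.18 on array A, and its array B probe set was not called (0.16 ± 0.31). Pmaip1, which encodes the death-promoting protein Noxa, read 1570, 652, 280, 705, 474 and 840 against 34.1 to 167, a log2 fold of 2.85 ± 0.28. The ear of animal 16 was the highest and that of animal 18 the lowest. Aen, a nuclease induced by p53, rose by 1.78 ± 0.12 on array A and 1.53 ± 0.18 on array B, and Ccng1, cyclin G1, by 1.71 ± 0.13. Eda2r, a death receptor and p53 target found on array B, rose by 2.19 ± 0.19. The 3 members that fell were Xpc (log2 fold -1.0), Sesn1 (-0.69) and Ddb2 (-0.42); Xpc and Ddb2 encode damage sensors of nucleotide excision repair, and they were named because so few members fell.

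Acute chemokine transcripts were raised, with large differences between ears. Of 10 cytokine and chemokine genes kept on array A, 7 rose and 1 fell (median log2 fold 0.51), and with the block over 17 animals 2 were called higher and 1 lower. Cxcl1, a chemokine that draws neutrophils, read 1630, 598, 144, 811, 292 and 933 against 5.62 to 70.6 on array A, a log2 fold of 3.68 ± 0.46 (adjusted p = 3.37e-08). No vehicle ear reached the treated ears. Its array B probe set gave 1.25 ± 0.20, so the fold differed between probe sets, and with the larger added constant array A gave 2.75. Cxcl2, a second neutrophil chemokine, read 1900, 179, 109, 380, 1770 and 675 against 35.4 to 299. The ears of animals 17 and 18 lay inside the vehicle range. The log2 fold of 2.30 ± 0.49 (adjusted p = 0.000224) became 1.94 with adjusted p = 0.0884 under the block over 17 animals. With the 4 pairs alone adjusted p was 0.0126. Cxcl3 on array B read 1490, 71.8, 30.8, 108, 459 and 263 against 9.07 to 151, so 3 of the 6 ears overlapped vehicle skin. Its call (log2 fold 1.56 ± 0.50, adjusted p = 0.0281) was lost without animal 16 (adjusted p = 0.239), animal 21 (0.101) or animal 22 (0.0743) and with the block (0.71, adjusted p = 0.738). Animals 16 and 21, which the block leaves out, had the highest signals of both Cxcl2 and Cxcl3.

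Il1b, which encodes interleukin-1 beta, read 665, 203, 213, 239, 920 and 438 against 105 to 296 (median 171). Animals 16, 21 and 22 were above every vehicle ear and the other 3 within the vehicle range. Its log2 fold was 1.01 ± 0.29 (adjusted p = 0.005). Under the block, which leaves out animals 16 and 21, it was 0.73 with adjusted p = 0.322. Il1rn, the antagonist of the interleukin-1 receptor, had a log2 fold of 0.53 ± 0.11 (adjusted p = 0.000134), lost under the block (0.39, adjusted p = 0.183) and without rescaling (0.067). Ccl2, which draws monocytes, had a log2 fold of 1.17 ± 0.28 with 2 ears above the vehicle range, and its call too was lost under the block (0.86, adjusted p = 0.2). The member that fell was Il33, an alarmin stored in epithelial nuclei. It read 499, 569, 565, 546, 622 and 350 against 658 to 1180 (median 836), with no overlap, and its log2 fold was -0.69 ± 0.11 (adjusted p = 4.23e-06).

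Markers of infiltrating cells were divided. Of 13 neutrophil markers kept, 7 rose and 3 fell, and S100a8, S100a9 and Lcn2 (log2 fold 3.09 ± 0.29), which keratinocytes make as well, held the 3 largest rises. Of the 6 markers kept that keratinocytes do not make, 3 rose (Fpr2, Csf3r and Ngp) and 1 fell (Mpo). Their mean log2 level was 7.68 to 8.24 in the treated ears and 7.05 to 7.69 in the vehicle ears, and naive ears of the arrays without mustard lay at 7.70 to 8.29; the part of neutrophils in the rises above was not tested. Ngp, a neutrophil granule protein, read 485, 230, 217, 338, 333 and 389 against 128 to 217. Its log2 fold was 0.86 ± 0.13 (adjusted p = 2.17e-06). Fpr2, a receptor for formylated peptides, had a log2 fold of 0.96 ± 0.18. Csf3r, the granulocyte growth factor receptor, lost its call under the block (log2 fold 0.86 ± 0.27, adjusted p = 0.0093; under the block 0.91 with adjusted p = 0.172). Clec4d, a C-type lectin of myeloid cells, had a log2 fold of 0.77 ± 0.26 (adjusted p = 0.0177) that was not called without animal 16 (0.0721) or 21 (0.0621) or with the block (0.49, adjusted p = 0.515). Mpo, myeloperoxidase, fell by 0.70 on the log2 scale (SE 0.12), with 236 to 459 in treated and 320 to 758 in vehicle ears.

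Among 15 macrophage markers 5 rose and 1 fell (3 and none under the block), beside 17.2% and 20.9% of all genes. The median log2 fold was 0.18. Cd14, the co-receptor for bacterial lipopolysaccharide, read 920, 574, 609, 500, 1210 and 830 against 229 to 414 (log2 fold 1.25 ± 0.19), without overlap. Cd68, a lysosomal protein of macrophages, rose by 0.87 ± 0.14 with 4 ears above the vehicle range. Clec7a, a receptor for fungal glucan, had a log2 fold of 1.35 ± 0.26 (adjusted p = 5.61e-05) and 0.83 with adjusted p = 0.129 under the block. The summed list covered 8.08 to 8.74 in the treated ears and 7.64 to 8.86 in the vehicle ears, which overlap. Adhesion and acute phase genes rose in part, beside 17.2% of all genes: 2 of 5 endothelial activation genes (Procr and Icam1) and 5 of 11 acute phase and coagulation genes. Of the latter 1 was lower, F3. Icam1, the adhesion molecule that holds leukocytes on endothelium, read 1010, 916, 512, 511, 638 and 1070 against 129 to 286. Its log2 fold was 1.99 ± 0.17 (adjusted p = 4.85e-12), and the groups did not overlap. Saa3, a serum amyloid made locally in inflamed tissue, rose by 2.06 ± 0.30, from 18 to 143 up to 164 to 733.

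Interferon-stimulated genes were higher in 7 of 10 kept (median log2 fold 0.71; 5 of 10 under the block), and none was lower. Gbp2, a guanylate-binding protein of the interferon response, read 303, 291, 250, 185, 591 and 419 against 50.3 to 113 (median 63.3). All treated ears were above the vehicle ears, and the log2 fold was 1.96 ± 0.18 (adjusted p = 2.49e-11). Rsad2, the antiviral protein viperin, rose by 1.31 ± 0.19 and Ifit1 by 0.97 ± 0.16, in both with 5 ears above the vehicle range.

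The transcripts of the prostaglandin pathway were called about as often as other genes. Of 31 genes on the list, 20 were kept on array A, and 3 of these rose and 5 fell, with a median log2 fold of -0.04; the block over 17 animals called 1 higher and 2 lower. The 8 called are a share near the 38.1% of all genes called and are no result about the pathway as a whole. Ptgs1, the constitutive cyclooxygenase, was not analysed here, and 6 receptors (Ptger1, Ptger2, Ptger3, Ptgdr, Ptgdr2 and Ptgir) were below the minimum signal.

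Release of arachidonic acid is the first step. Pla2g4a, the cytosolic phospholipase A2 that frees it from membranes, read 245, 283, 318, 319, 288 and 174 against 257 to 620 (median 456). Animals 16 and 22 were below every vehicle ear, and the log2 fold was -0.76 ± 0.16 (adjusted p = 0.000127), or -0.54 with adjusted p = 0.0878 under the block. Pla2g5, a secreted phospholipase A2, fell by 1.27 on the log2 scale (SE 0.24, adjusted p = 5.81e-05), with 57.9 to 399 in the treated and 192 to 719 in the vehicle ears.

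Ptgs2, the inducible cyclooxygenase and a target of indomethacin, read 297, 82.4, 77.3, 150, 126 and 203 against 34.9 to 102 (median 63.7). The signals were low throughout, and animals 16, 19, 21 and 22 exceeded every vehicle ear. The log2 fold was 0.92 ± 0.20 (1.89-fold, adjusted p = 0.000313). Ptges, the microsomal synthase that makes prostaglandin E2 from the cyclooxygenase product, read 1450, 1390, 1110, 1540, 1240 and 1410 against 258 to 884 (median 643). All treated ears were above all vehicle ears, and they varied little among themselves. Its log2 fold was 1.11 ± 0.18 (adjusted p = 4.5e-06) on array A and 1.15 ± 0.19 on array B. With the block over 17 animals the value was 0.79 with adjusted p = 0.0818, and with the 4 indomethacin animals alone adjusted p was 0.00485. Hpgds, the synthase of prostaglandin D2 in immune cells, had a log2 fold of 0.57 ± 0.16 (adjusted p = 0.00368), lost under the block with a like fold (0.55, adjusted p = 0.0708).

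Export, breakdown and reception followed no single direction. Abcc4, a transporter that exports prostaglandins, fell on array B by 0.65 on the log2 scale (SE 0.12), with 1340 to 2210 in treated and 2060 to 3190 in vehicle ears. Hpgd, the enzyme that inactivates prostaglandins, was not called (log2 fold 0.17 ± 0.12, adjusted p = 0.301), and its sign turned under the block (-0.07). Ptger4, a receptor for prostaglandin E2, read 417, 238, 331, 205, 322 and 270 against 302 to 729. It fell by 0.63 on the log2 scale (SE 0.15, adjusted p = 0.000763), with 3 ears below the vehicle range.

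The lipoxygenase branch uses the same arachidonic acid and is not blocked by cyclooxygenase inhibitors. Of 11 genes kept, 3 rose and 3 fell (1 and 2 under the block), with a median log2 fold of -0.19. Beside 17.2% and 20.9% of all genes, counts from so few members are no result about the list as a whole. Ltb4r1, the high-affinity receptor for leukotriene B4, read 1290, 975, 495, 1020, 779 and 1180 against 211 to 431 (median 330), without overlap. Its log2 fold was 1.47 ± 0.16 (2.77-fold, adjusted p = 7.29e-10). Cysltr1, a receptor for the cysteinyl leukotrienes, fell by 1.20 on the log2 scale (SE 0.20), with 3 ears below the vehicle range. Alox5, the 5-lipoxygenase that starts leukotriene synthesis, fell on array B by 0.70 (SE 0.12), from 933 to 1910 down to 574 to 1010. Both epidermal lipoxygenases named here went opposite ways. Alox12b, which acts on barrier lipids, read 2280, 2260, 1790, 3250, 2220 and 3190 against 347 to 1590 (log2 fold 1.24 ± 0.21, adjusted p = 8.34e-06; block 0.91, adjusted p = 0.0928). Alox12e fell by 1.08 on the log2 scale (SE 0.27, adjusted p = 0.00141), with the ears of animals 16 and 22 at or below the lowest vehicle signal of 952.

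**Figure D2:**
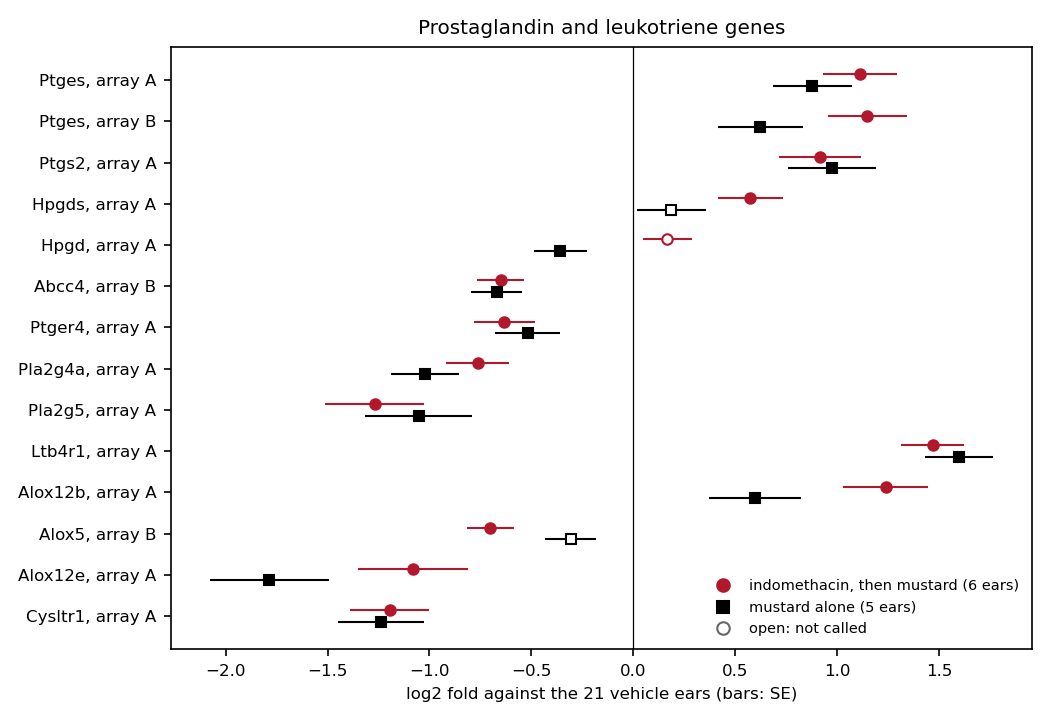
Log2 fold against the 21 vehicle ears, with SE bars, for prostaglandin and leukotriene genes after indomethacin and mustard (red circles) and after mustard alone (black squares); filled symbols were called. Both sets use the same vehicle ears; Ptges, Ptgs2 and Ltb4r1 lie to the right and Pla2g5, Cysltr1 and Alox12e to the left in both.

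Some lists of stress responses inside the cell had more members called higher than the 17.2% of all genes, and others did not. Of 22 immediate early and AP-1 genes kept, 12 rose and none fell (8 under the block), with a median log2 fold of 0.51. Fosl1, which encodes the AP-1 subunit Fra-1, read 1090, 716, 294, 712, 306 and 1100 against 30.5 to 241, a log2 fold of 1.96 ± 0.28. No vehicle ear overlapped. Dusp6, a phosphatase that switches off ERK kinases, rose by 2.09 ± 0.22, Ier5 by 1.38 ± 0.16 and Junb, another AP-1 subunit, by 1.01 ± 0.18. Of 14 heat shock genes, 6 rose and none fell (2 and none without rescaling). Hsp90aa1, an inducible chaperone, rose by 1.14 ± 0.14 on array A in all 3 of its probe sets, and its array B probe set was not called (-0.07 ± 0.17). Of 19 genes of the endoplasmic reticulum and amino acid stress response, 9 rose and 2 fell, under the block 5 and none, and without rescaling 4 and 1. Genes of the Nrf2 antioxidant response had 4 of 17 higher and 5 lower (3 and 2 under the block), near the 17.2% and 20.9% of all genes, which is no result about the list as a whole. Nqo1, a quinone reductase, read 770, 684, 633, 682, 668 and 606 against 205 to 483 (log2 fold 1.04 ± 0.12), and Srxn1, sulfiredoxin, rose by 1.21 ± 0.14. Gstm1, a glutathione transferase, fell by 0.93 on the log2 scale (SE 0.11), with all 6 ears below the vehicle range. Of 16 matrix remodelling genes 4 rose and 1 fell, together a smaller share than the 38.1% of all genes called, and the median log2 fold was -0.05. Timp1, an inhibitor of metalloproteinases, had a log2 fold of 1.28 ± 0.23. Mmp10, a metalloproteinase of wound-edge keratinocytes, read 1060, 23.1, 69.3, 159, 62.7 and 428 against 12.2 to 91. 3 of the 6 ears lay within the vehicle range, and the log2 fold of 1.88 ± 0.41 (adjusted p = 0.000286) became 1.37 with adjusted p = 0.126 under the block.

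Genes of cell division were lower. Of 22 proliferation genes kept, 12 fell and 1 rose, the median log2 fold was -0.46, and the block over 17 animals called 6 lower and 2 higher. Mki67, the proliferation antigen Ki-67, read 104, 149, 192, 120, 256 and 74.3 against 231 to 748 (median 524). 5 of the 6 ears were below every vehicle ear, and the log2 fold was -1.73 ± 0.23 (adjusted p = 9.85e-08). Ccnb2, a cyclin of mitosis, read 82.3, 42.8, 90.1, 87.2, 150 and 69 against 200 to 429, without overlap (-1.63 ± 0.21). Cenpf, a kinetochore protein, fell by 1.03 (SE 0.16) and Plk1, a mitotic kinase, by 0.87 (SE 0.13), both with all ears below the vehicle range. Bub1b, a spindle checkpoint kinase on array B, had a log2 fold of -2.28 ± 0.37 from low signals (21.7 to 48.4 against 31.2 to 551), -1.60 with the larger added constant, and was not called under the block (-1.53, adjusted p = 0.111). The member that rose was Rrm2, a subunit of the enzyme that makes DNA building blocks and also used in repair. It read 1660, 1300, 1090, 1660, 1220 and 1230 against 426 to 1050, all treated ears above the vehicle ears, a log2 fold of 0.76 ± 0.11 (adjusted p = 6.06e-07).

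Basal keratinocyte genes went the same way, with 6 of 14 lower and 1, Itgb1, higher. Krt15, a keratin of basal cells, read 2810, 5370, 6850, 4310, 8770 and 3150 against 10600 to 18300 (median 13000). The groups did not overlap, and the log2 fold was -1.48 ± 0.16 (2.78-fold lower, adjusted p = 2.03e-09). Col17a1 and Dst, which build the hemidesmosomes that hold basal cells to the basement membrane, fell by 0.74 (SE 0.11) and 0.97 (SE 0.17) on the log2 scale.

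Lipid synthesis had the largest share of fallen members among the lists read on array A. Of 25 sebaceous and lipid synthesis genes kept, 18 fell and 1, Elovl1, rose; in 8 all treated ears lay below all vehicle ears, the median log2 fold was -0.54, and under the block 14 fell. Elovl6, which lengthens saturated fatty acids, read 2860, 2610, 3480, 3850, 3970 and 2630 against 6590 to 15400 (median 8440). No treated ear reached the vehicle range, and the log2 fold was -1.49 ± 0.16 (2.8-fold lower, adjusted p = 7.29e-10); its array B probe set was not called (-0.42 ± 0.20). Acsbg1, which activates long fatty acids, read 493, 670, 899, 798, 672 and 443 against 1040 to 2250 (log2 fold -1.12 ± 0.15). Acaca, the rate-limiting carboxylase of fatty acid synthesis, fell on array B by 1.07 (SE 0.12), where its array A probe set was not called (-0.23 ± 0.13). Far2, which makes the fatty alcohols of sebum waxes, fell on array B by 1.19 (SE 0.16), with all ears below the vehicle range. Lpl, the lipase of fat and muscle vessels and a member of the adipocyte list, in which 2 of 6 fell (1 under the block), read 2220 to 4270 against 5340 to 10100 (log2 fold -1.13 ± 0.15).

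**Figure D3:**
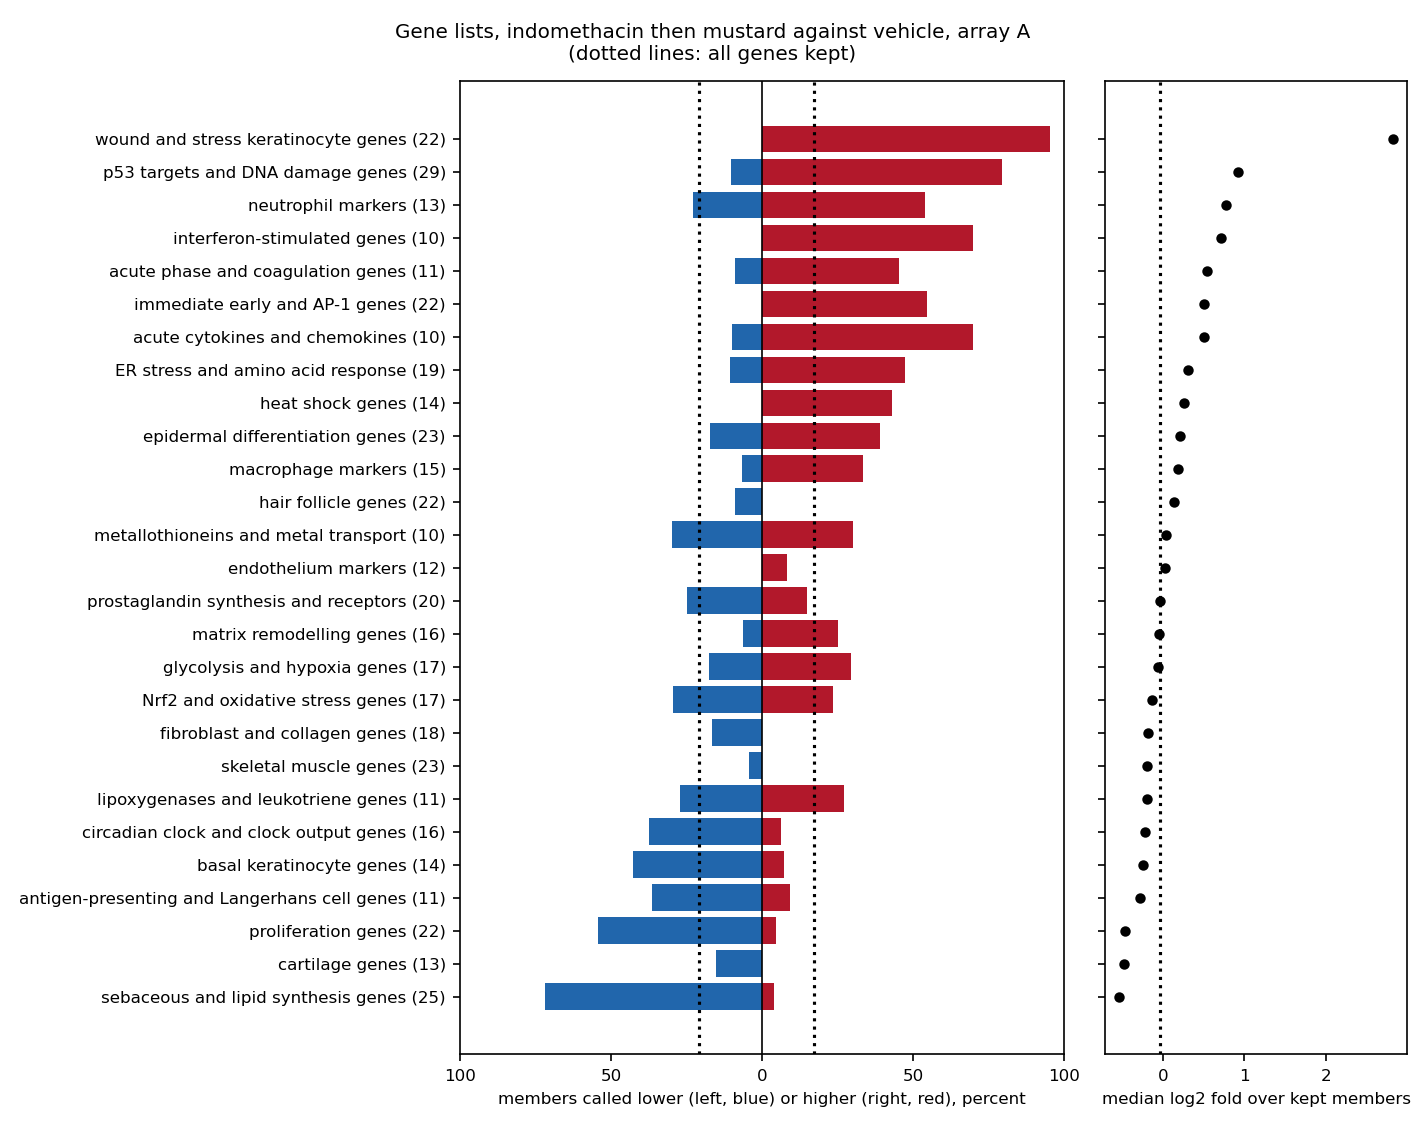
Share of kept members called higher (red, right) or lower (blue, left) and median log2 fold for gene lists with at least 10 members kept on array A; dotted lines give the shares and the median over all genes. Wound and stress keratinocyte genes (21 of 22 higher) and lipid synthesis genes (18 of 25 lower) stand at the ends, and the prostaglandin list lies near the dotted lines.

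Clock output genes were among the largest falls of array A, and a circadian list was added after the values of Dbp and Hlf were seen. Dbp, a transcription factor whose level follows the day, read 182, 407, 548, 148, 708 and 236 against 341 to 1910 (median 1550). Animals 16, 19 and 22 were below every vehicle ear, and the log2 fold was -2.0 ± 0.28 (adjusted p = 3.55e-07), or -1.11 with adjusted p = 0.0141 under the block. Hlf, of the same family, read 115, 460, 465, 511, 873 and 165 against 979 to 2120 (median 1500), without overlap (-1.98 ± 0.27; block -1.79). Of 16 clock genes kept, 6 fell and 1 rose, Bhlhe40 (0.56 ± 0.13, not called without rescaling). Without Dbp and Hlf, which led to the list, 4 of 14 fell (28.6%) beside 20.9% of all genes. Per3 and Nr1d1 fell by 0.85 (SE 0.13) and 0.81 (SE 0.14), and Tef by 0.57 (SE 0.10). Nr1d2 had -0.68 ± 0.12, and its call was lost under the block (-0.51, adjusted p = 0.0646). The labels used here give no hour of day for the biopsies, so a difference in sampling hour was not tested.

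Other large falls joined genes of several functions. Slc6a2, the noradrenaline transporter of sympathetic nerves, read 131, 593, 904, 576, 728 and 62.3 on array B against 1700 to 4080 (median 3020). No treated ear reached the vehicle range, and the log2 fold was -3.00 ± 0.38 (8-fold lower, adjusted p = 9.31e-08). Its array A probe set was not called (-0.22 ± 0.11), so the probe sets disagree. Sema5a, an axon guidance molecule, fell on array B by 2.30 (SE 0.30), and the growth arrest gene Gas1 on array A by 1.89 (SE 0.26). Igfbp3, which binds insulin-like growth factors, fell on both arrays, by 1.69 (SE 0.19) and 1.16 (SE 0.16). Chst15, a sulfotransferase of chondroitin sulfate, read 43.3, 69, 293, 57.9, 277 and 40.9 against 315 to 490. Animals 18 and 21 were just under the vehicle range and the other 4 far below it (log2 fold -1.82 ± 0.25). Fhit, a hydrolase of dinucleoside polyphosphates, fell by 1.93 (SE 0.24), and the autophagy gene Atg10 by 2.10 (SE 0.24; 1.35 with the larger added constant). Emc8 fell on array B by 1.98 (SE 0.34) and was not called on array A (-0.05 ± 0.08).

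Markers of other skin cells are given for array A, where 17.2% of all genes were called higher and 20.9% lower. Called lower were 3 of 18 fibroblast and collagen genes, 2 of 22 hair follicle genes, 2 of 13 cartilage genes and 1 of 8 mast cell markers, all smaller shares than over all genes, with none higher in these lists. The block over 17 animals left 1 fibroblast, 2 hair follicle, no cartilage and no mast cell genes lower. Of 8 melanocyte markers 2 were lower (1 under the block) and none higher. On array B the melanocyte marker Mlana, a melanosome protein, went the other way, at 780 to 1850 against 178 to 676 without overlap (log2 fold 1.66 ± 0.23). Of 6 Schwann cell and nerve markers 3 were called lower, a count that was 0 under the block (median log2 fold -0.17 in place of -0.42), without rescaling, without animal 16 and without animal 19. The hair follicle median was 0.13 and turned to -0.46 under the block. Of 12 endothelium markers 1 was higher (Lyve1; none under the block) and none lower. Of 4 T cell markers 2 fell, Cd3e from 57.3 to 348 down to 36.1 to 136 (log2 fold -1.17 ± 0.25) and Cd3g (-1.01 ± 0.23). Antigen-presenting and Langerhans cell genes had 4 of 11 lower and 1 higher (3 and none under the block), with Cd74, the chaperone of class II molecules, at -0.74 ± 0.13. None of 3 B cell markers was called. Of 3 red blood cell genes Alas2 was higher. The remaining lists were mixed: metallothioneins and metal transport 3 of 10 higher and 3 lower (1 and 3 under the block), glycolysis and hypoxia 5 of 17 higher and 3 lower (1 and 5 under the block), aryl hydrocarbon receptor targets 2 of 5 higher and 3 lower (2 and none under the block), and vanilloid and neurogenic genes 1 of 5 higher and 1 lower (none under the block).

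Array B added genes that array A does not measure or measures poorly. Stfa2l1, a stefin-family inhibitor of cysteine proteases, read 14000, 8840, 5450, 12800, 12700 and 18000 against 12.2 to 349, a log2 fold of 6.64 ± 0.55 (adjusted p = 4.38e-12) and 6.05 with the larger added constant. Klk12, an epidermal kallikrein protease, read 1920, 787, 926, 1310, 854 and 1500 against 38.1 to 79.6 (log2 fold 4.02 ± 0.43). Idi2, an isomerase of isoprenoid synthesis, rose by 3.93 ± 0.48, against the direction of the lipid list. Cpt1c, a carnitine palmitoyltransferase isoform, rose by 3.13 ± 0.35, from 41.8 to 608 up to 1510 to 2860. In none of these 4 did a treated ear reach down to the vehicle range. Smyd3, a methyltransferase, and Cenpi, a centromere protein, fell by 2.19 (SE 0.28) and 2.06 (SE 0.38); for Cenpi at least 1 vehicle ear was as low as the treated ears.

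The 6 ears differed in the size of their response in one order on both arrays at its ends. Over the array A probe sets at least 2-fold higher, the median log2 shift from the vehicle mean was 1.80 in animal 16, 1.75 in 22, 1.43 in 19, 1.42 in 17, 1.16 in 21 and 1.05 in 18. Over those at least 2-fold lower it was -1.74, -1.48, -1.29, -1.18, -0.73 and -0.68 in the same order of animals. On array B the ears of animals 16 and 22 again had the largest shifts in the risen probe sets (1.79 and 1.71) and those of 21 and 18 the smallest (1.13 and 1.07). The probe sets were chosen on these same ears, so the shifts are a description. Some interferon and inflammatory genes had another order: animal 21 had the highest signal of Gbp2, Rsad2, Ifit1, Il1b and Cd14.

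**Figure D4:**
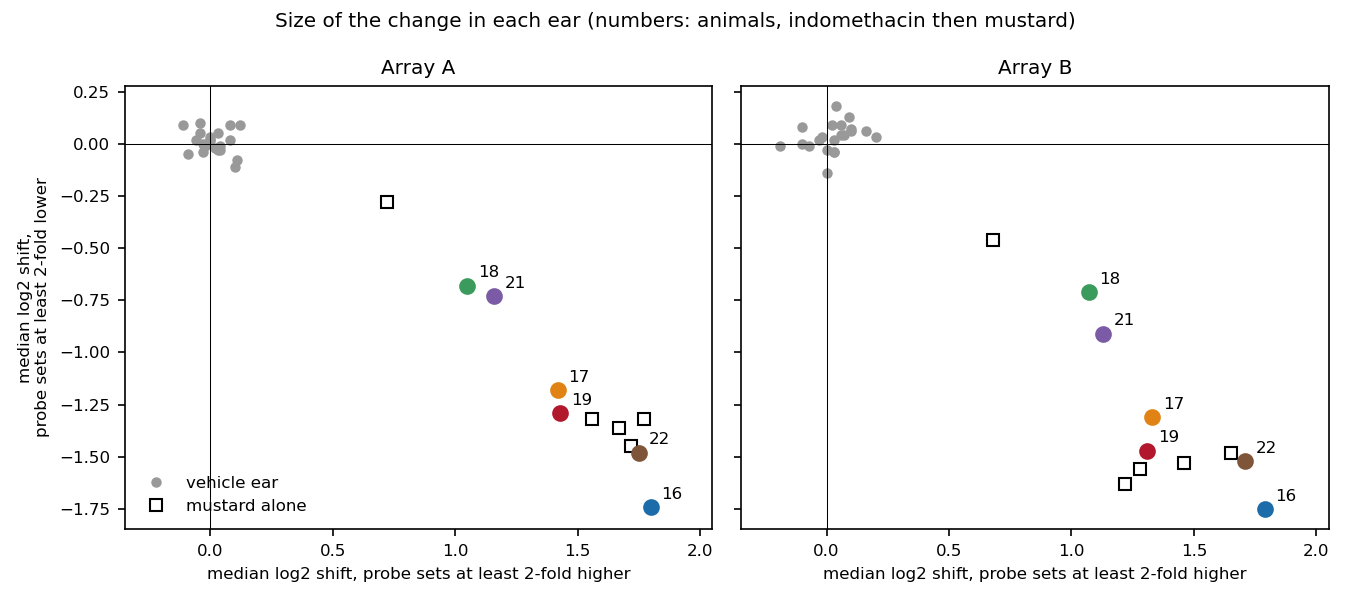
Median log2 shift of each ear from the vehicle mean over probe sets at least 2-fold lower (y axis) against those at least 2-fold higher (x axis), for arrays A and B; coloured numbered points are ears with indomethacin before mustard, open squares mustard alone, grey points vehicle. Animals 16 and 22 lie farthest from the vehicle ears and animals 18 and 21 nearest.

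Within animals, the right ear was set against the left ear of the same mouse for animals 17, 18, 19 and 22. For Krt6b the right ear exceeded the left by 3.57 to 7.33 on the log2 scale, for Defb3 by 5.92 to 8.41, for S100a8 by 4.68 to 5.86 and for Cdkn1a by 0.75 to 1.70. All 4 animals had these genes higher on the right. Elovl6 was lower in all 4 right ears, by 1.12 to 1.72 (differences -1.72 to -1.12), and Krt15 by 0.92 to 1.78 (-1.78 to -0.92). Dbp differed by -2.08 to -0.62 and Slc6a2 on array B by -4.46 to -1.54. Some falls were small in 1 animal: Gas1 and Chst15 each ranged up to -0.10, from -2.74 and -2.78. Genes whose calls the block removed include some that went both ways, such as Ccl2 (3 of 4 animals higher, -0.12 to 2.37), Mmp10 (3 of 4, -0.06 to 3.33) and Il1rn (3 of 4, -0.09 to 0.64). Others were higher in all 4 animals by uneven amounts, as Ptges (0.41 to 1.18) and Cxcl2 (0.77 to 3.45).

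**Figure D5:**
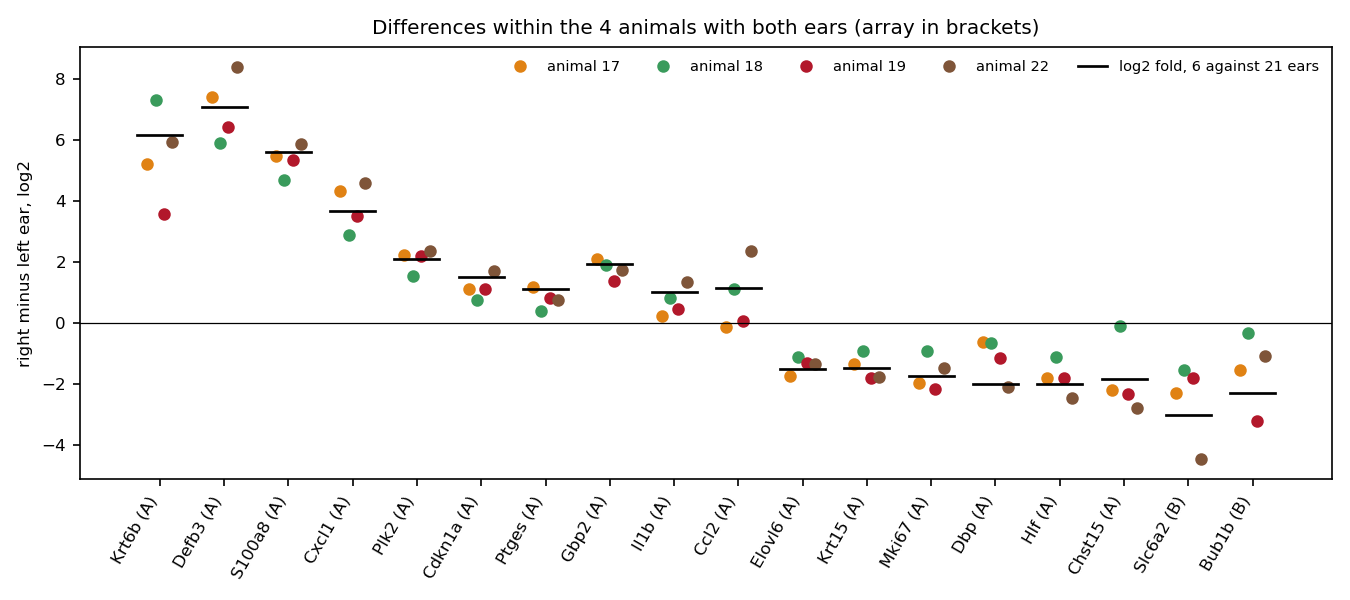
Right minus left ear on the log2 scale for 18 genes in each of the 4 animals that gave both ears (coloured points), with the log2 fold of 6 treated against 21 vehicle ears as a black line. Krt6b, Defb3 and S100a8 lie above 0 and Elovl6, Krt15 and Mki67 below 0 in all 4 animals, while Ccl2 falls on both sides.

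The ears pretreated with indomethacin in ethanol were then compared with the 5 ears given mustard alone, which had no ethanol, so a difference cannot be assigned to the drug. Array A had 287 probe sets called (1.8%), 183 higher and 104 lower after indomethacin, and array B 547 (3.16%), 413 higher and 134 lower. These counts rested on few ears and on the shared estimate of spread. With the 2 groups fitted alone both arrays had 0 calls (unadjusted p under 0.05 in 1885 and 2269 probe sets), as they had with the block over 17 animals (1002 and 1263). Single mustard ears decided the counts as well: array A had 0 calls without animal 5 or without animal 37 (unadjusted p under 0.05 in 2580 and 2042), 926 without animal 1, 167 without animal 3 and 1220 without animal 36. Array B had 150 without animal 5, 46 without 37, 671 without 1, 632 without 3 and 1217 without 36. Without both 5 and 37 neither array had a call (1181 and 1341 by unadjusted p). The ear of animal 36 had the smallest mustard response, with median shifts of 0.72 and -0.28 over the array A probe sets risen and fallen 2-fold, where the other 4 mustard ears had 1.56 to 1.77 in the risen ones. Leaving out 1 indomethacin ear at a time gave 15 calls on array A without animal 17, 76 without 18, 11 without 19 and 44 without 21. The array A count was 391 without animal 16 and 332 without 22. On array B it was 206 without 18 and 366 to 518 without any other. The mustard ears were uneven in array quality: their array A brightness was 66.35 to 136.8 and their Gapdh ratio 0.30 ± 0.38 (SD, n = 5). Animals 5 and 37 had Gapdh ratios of 0.63 and 0.78 and brightness of 85.65 and 66.35. Animals 1, 3 and 36 had ratios of 0.03, 0.08 and -0.05 and brightness of 116.6, 130.3 and 136.8, inside the vehicle ranges. Ears 5 and 37 are also those without which neither array had a call. With the Gapdh ratio as a covariate 0 probe sets were called on array A and 1 on array B, and with brightness 0 and 1. Without rescaling 5957 and 3639 were called, with the median of all probe sets at 0.52 and 0.43 on the log2 scale.

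Of 95 named array A genes that were called against vehicle, 90 were not called against mustard alone, and the median width of the 95% interval of the difference was 1.1 on the log2 scale. The other 5 (Gbp2, Il1b, Serpinb7, Slc6a4 and Sp6) are described next. Il1b, Serpinb7, Slc6a4 and Sp6 are among the 6 largest rises or falls of this same comparison, by which genes were named in part. The split of the named genes therefore depends on how they were chosen. Over all 9611 genes of array A, 91 were called higher and 56 lower than after mustard alone. Both sets of folds share the vehicle ears and are given only side by side, and the difference is tested between the 6 and 5 treated ears. Krt6b had a log2 fold of 6.43 after mustard alone, and the difference of -0.28 had a 95% interval of -1.77 to 1.21. Ptgs2 had 0.98 and a difference of -0.06 (-0.59 to 0.47), and Ptges 0.88 and 0.23 (-0.24 to 0.71). For Plk2 the difference was -0.27 (-0.70 to 0.17) and for Elovl6 -0.16 (-0.58 to 0.25). None of these 5 was called, and the intervals leave room for differences in either direction. Of 3 neutrophil chemokines none was called: the difference was -0.89 (-2.11 to 0.32, adjusted p = 0.421) for Cxcl1, -1.29 (-2.58 to 0.00, adjusted p = 0.258) for Cxcl2 and -1.86 (-3.17 to -0.54, adjusted p = 0.102) for Cxcl3 on array B.

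Il1b was called lower after indomethacin than after mustard alone. Mustard ears had 244 to 3550 (median 1220) against 203 to 920, a difference of -1.37 (adjusted p = 0.0489), which was -0.55 (adjusted p = 0.775) without mustard ears 5 and 37. Pdpn, the membrane protein podoplanin, was lower by 1.02 (log2 difference -1.02, adjusted p = 0.0329), with 375 to 1480 after mustard alone and 357 to 470 after indomethacin. Gbp2 was higher after indomethacin by 1.01 (adjusted p = 0.0349), with 113 to 173 after mustard alone, below all 6 ears; without mustard ears 5 and 37 it was 1.10 with adjusted p = 0.634. Sp6, a transcription factor of epithelia, was higher by 1.89 on array A (adjusted p = 0.0329) and not called on array B (0.38, adjusted p = 0.312). Dnase1l2, a nuclease of cornifying cells, was higher by 1.70 (adjusted p = 0.0356), Serpinb7, an epidermal protease inhibitor, by 1.37 (0.0278) and Slc6a4, the serotonin transporter, by 1.41 (0.0448). Against vehicle, Dnase1l2 (0.26 ± 0.32) and Pdpn (0.34 ± 0.18) were not called, and Serpinb7 (-0.68 ± 0.23) was not called without animal 16 or 22. Slc6a4 was lower than in vehicle skin (log2 fold -1.34, adjusted p = 0.000275), so it was less reduced than after mustard alone. The rise of Sp6 over vehicle (0.84, adjusted p = 0.0413) lost its call in 11 of 21 alternatives. All 7 of these differences from mustard alone lost their call without mustard ear 5, without mustard ear 37 and without both. All 7 kept it without mustard ear 36. Without mustard ear 5 the differences were 1.74 for Sp6, 1.66 for Dnase1l2, 1.20 for Serpinb7, 1.11 for Slc6a4, 1.03 for Gbp2 and -0.82 for Pdpn, with adjusted p of 0.0859 to 0.168. Il1b was then -1.21, and without mustard ear 37 Il1b was -0.92 and Dnase1l2 1.07.

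Ears with dimercaprol, a dithiol given before the same mustard dose, had 487 probe sets called against vehicle on array A (3.05%), and the pretreatments differ in dose and kind. Directly compared, array A had 1677 probe sets (10.5%) that differed between the 6 indomethacin and the 6 dimercaprol ears, 710 higher and 967 lower after indomethacin, and array B 307 (1.78%). The array A count was 711 without animal 16 and 803 without animal 22, and 984, 1019 and 1102 without the dimercaprol ears of animals 6, 9 and 11. Of the 22 wound and stress keratinocyte genes 19 were higher after indomethacin than after dimercaprol, where 5.3% of all genes were. S100a8 was higher by 3.88 (adjusted p = 0.000163), Epgn by 3.28 (0.000222) and Ltb4r1 by 1.08 (0.000522). Pla2g4a was lower by 1.03 (log2 difference -1.03, adjusted p = 0.000786) and Hlf by 1.53 (-1.53, 0.00334). Of the 29 p53 targets 12 were higher and 1 lower, beside 5.3% and 6.4% of all genes; Aen was higher by 0.69 (0.0021), and Ccng1 was not called (0.43, adjusted p = 0.0887).

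Indomethacin without mustard gave no called difference from its ethanol vehicle on array A. In 4 ears against 3, of which 1 mouse gave an ear to each group, limma called 0 of 15953 probe sets, and 1117 had an unadjusted p under 0.05. Leaving out 1 indomethacin ear at a time also gave 0, and the ethanol ears were not left out in turn. Ptgs2 read 115, 179, 115 and 109 in the indomethacin ears and 154, 158 and 102 in the ethanol ears (log2 fold -0.08 ± 0.25). Ptges read 980, 1220, 1050 and 879 against 1050, 1150 and 491 (0.28 ± 0.21). For Krt6b the indomethacin ears read 829, 233, 424 and 284 and the ethanol ears 870, 728 and 208. These Krt6b signals lay within the range of the methylene chloride ears given above. The Ptgs2 signals lay at or above the top of that gene's methylene chloride range, and inside the range of the indomethacin ears with mustard. The Ptges signals, except 879 and 491, lay above that gene's methylene chloride range. The part of mustard in the Ptgs2 and Ptges rises given above was not tested. Between the indomethacin ears without mustard and the naive ears, averaged to 1 value per mouse (3 mice), 26 probe sets (0.163%) were called. The left ears of the 4 indomethacin animals differed from the other 17 left ears in 62 probe sets (0.389%).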

How the data were processed

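The skin RNA of each ear (10 µg total RNA) was read on Affymetrix arrays A and B. The deposited values are linear probe set intensities that the authors made with MAS5, per the submitters' processing notes; its version and scaling are not given in the sources used here. Probe sets were named through GEO's platform annotation; 64 control probe sets per array were left out. Arrays were brought to one 2% trimmed mean (500), 16 was added before log2, and probe sets averaging 100 or more after scaling entered the tests (15953 on array A, 17287 on array B).

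Groups came from the treatment labels. limma 3.58.1 (lmFit, eBayes with trend, 2-sided) in R 4.3.3 and data.table (version 1.17.8) was fitted to the 5 groups of the mustard arrays together, and separately to the arrays without mustard, with Benjamini-Hochberg adjustment over all kept probe sets and a threshold of 0.05. A gene is represented by its kept probe set of highest mean. Scripts were tested on simulated data. The number of arrays limits the precision, and no array pair held identical values.

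The animal number marks ears of the same mouse. Deviations of both ears from their group means correlated at 0.164 on average over 17 animals (0.289 over the 4 indomethacin animals) and at -0.01 between different animals, so a fit with the animal as a block was read beside the main fit, which uses all 21 vehicle ears. Other alternatives were rescaling, the added constant (64), the minimum signal, the samples in the fit, array quality covariates and each ear left out.

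The comparison and the gene lists were chosen with earlier results of these data known; ears enter groups by label alone. Named genes were taken by size of change on array A (12 up, 12 down) and on array B (6 up, 6 down), with all 6 ears on 1 side of the vehicle mean; further ones are the members of a list with the smallest adjusted p (4 at most per list), a panel of skin injury genes, and the 6 largest rises and falls against mustard alone; not all of them are named. The 38 lists, 1 of them added later, are those reported.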

Additional observations from a re-analysis of the deposited data

Results flagged for a closer look

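In 5 of 118 named genes 1 of the 6 treated ears stood apart from the rest by Dixon's test (gap over range), where chance gives about 1 in 20. The ear of animal 18 was the lowest for Defb3 (1220 against 4210 to 7360, ratio 0.688), Sprr1b (6370 against 9650 to 11700, ratio 0.683) and Sprr2h (3740 against 7030 to 10100, ratio 0.635). These 3 genes rise together in injured epidermis and are not independent of each other. For Fpr2 the ear of animal 16 was the highest (431 against 186 to 250, ratio 0.653), and for Cenpf that of animal 22 was the lowest (71.5 against 126 to 166, ratio 0.661).

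Against mustard alone, 7 of the named genes on array A differed by limma's test between the pretreated and the untreated mustard ears. Over all 9611 genes of array A, 91 were called higher and 56 lower. Gbp2 (log2 difference 1.01), Sp6 (1.89), Dnase1l2 (1.70), Serpinb7 (1.37) and Slc6a4 (1.41) were higher after indomethacin, and Il1b (-1.37) and Pdpn (-1.02) lower. Gbp2 kept its call in 14 of 23 alternatives, Serpinb7 in 13 of 24, Sp6 in 12 of 23, Dnase1l2 and Pdpn in 11 of 24 each, and Il1b and Slc6a4 in 7 of 24 each. Adjusted p for Il1b ranged from 0.0024 to 0.785 over these.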

How the results depend on the processing

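Limits: the vehicle ears lack ethanol, mustard alone has 5 ears of uneven array quality, and linear MAS5 signals near background have no detection calls here, so low signals and folds from them are imprecise. Of 113 named genes called against vehicle, 93 kept call and direction in every alternative and 108 in all but the fixed animal blocks and the fit without rescaling. The cause of the changes below was not tested.

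Against vehicle, the array A count (5726) was 2535 without rescaling, 3033 with the block over 17 animals and 3064 with the 4 pairs alone. The array B count (2202) was 1097, 740 and 663. Leaving out 1 treated ear or the vehicle ear of animal 19 gave 4570 to 5793 and 1609 to 2327. With the animal as a random block the counts were 5893 and 2254. Hpgd (-0.068) and Dnase1l2 (-0.11), not called, turned sign under both fixed blocks. Against mustard alone, array A (287) gave 5957 without rescaling, 155 with no minimum signal, 71 with the random block, 12 with muscle genes as a covariate, and 0 with the 2 groups alone, the block over 17 animals, the Gapdh ratio, brightness or without mustard ears 5 and 37; limma's unadjusted p was under 0.05 for 1885, 1002, 1617, 1472 and 1181 probe sets in these 5 fits. Array B (547) gave 3639 without rescaling, 1 with the Gapdh ratio, 1 with brightness, and 0 in the 3 other fits (2269, 1263 and 1341 by unadjusted p). Leaving out 1 indomethacin or mustard ear gave 0 to 1220 on array A and 46 to 1217 on array B. In the ears without mustard, leaving out 1 indomethacin ear gave 0 to 0 (1117 by unadjusted p with all). Leaving out mustard ears 5 and 37 together was chosen after seeing the data. Against dimercaprol, array A (1677) gave 711 to 2174 without 1 ear. Under the block over 17 animals 18 named genes lost their call, and with the 4 pairs alone 11.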
